A study of Mus musculus with 4 samples.

Results

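Voltage-gated sodium and calcium channels were followed in mouse lumbar spinal cord as the set of array probes whose gene name in the scanner files begins with Scn and a digit, or with Cacna, Cacnb or Cacng. The rule found 63 probes for 40 genes among 55681 probes for 34788 genes and named transcripts. Of the 40 genes, 20 encode pore-forming subunits (sodium channel alpha and calcium channel alpha1) and 20 encode auxiliary subunits (sodium channel beta, and the Cacna2d, Cacnb and Cacng genes). A gene entered the test with a probe that exceeded background clearly (the scanner's flag "well above background") on 2 or more arrays. That held for 19 pore-forming and all 20 auxiliary genes, and for 61 of the 63 probes.

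The samples were 4 adult male ICR mice aged 8 weeks, an outbred stock with no transgene named in the labels. The L5 spinal nerve of 2 mice was ligated tightly with silk thread (spinal nerve ligation, SNL), and that of 2 sham mice was laid bare without a ligature. All 4 were perfused with saline under isoflurane at day 10. The labels name L4 to L5 cord in the protocol and L5 cord in the source field, and neither states the side. The study uses this injury as a pain model, and the comparison addresses how gene expression in the cord differs after it. Each mouse gave 1 total RNA sample and 1 array, so every error below rests on 2 mice per group.

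A pore-forming alpha subunit forms the whole ion path of such a channel, senses voltage and sets which current flows. Sodium channel alpha subunits carry the upstroke of the action potential, and small beta subunits alter their gating and anchor them to adhesion molecules. Calcium channel alpha1 subunits let calcium in as the membrane depolarises: L-type channels couple it to contraction and gene expression, P/Q-, N- and R-type channels to transmitter release, and T-type channels open near rest and shape bursting. The alpha2delta and beta subunits bring calcium channels to the membrane and to release sites. The alpha2delta proteins of Cacna2d1 and Cacna2d2 bind gabapentin and pregabalin, drugs given for neuropathic pain, and several gamma subunits are better known as carriers of AMPA receptors.

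Each signal below is log2 of the scanner's processed signal minus the 75th percentile of its array, so that 0 is the signal at that percentile. A change is SNL minus sham on this log2 scale, with its SE from limma. Because probes differ in how strongly they hybridise, a level is compared only between mice at the same probe.

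The probes on which the results turn are 60 bases long, and the first 30 are given 5′ to 3′ as the scanner files list them, with mm9 positions from the same files. Capitals mark a tandem repeat of a base pair step of at least 12 bases. They are shown because 3 probes of Scn8a and 2 of Cacng7 gave different changes, because Scn9a was read by a single probe, and because both Cacna2d1 probes were higher after ligation.
Scn8a, brightest probe, chr15:100875702-100875761, plus strand: gcaggtgtgcacatgtaTGTGTGTGTGTGT
Scn8a, middle probe, chr15:100848863-100848922, plus strand: ttcatcctggagatgttgctcaaatggaca
Scn8a, first probe, chr15:100766904-100766963, plus strand: acagcaagcccaagccaaacagtgacctgg
Cacng7, brightest probe, chr7:3367751-3367810, plus strand: ggggggcctggctctgttatttaccgtgta
Cacng7, other probe, chr7:3366442-3366501, plus strand: gacatctctagcgacgtctccattcagatg
Scn9a, chr2:66321218-66321277, minus strand: gaattgtgcatgtaactctacagggaataa
Cacna2d1, brightest probe, chr5:15876550-15876609, plus strand: agttacattaaataggagtcggttgaagaa
Cacna2d1, other probe, chr5:15880152-15880211, plus strand: ccttattatgttctctggacacttttgtgg
The brightest Scn8a probe holds a TG repeat of 16 bases, which extends past the bases shown. It is the only 1 of the 63 channel probes with a repeat of 12 or more bases, which 243 of all 55681 probes, or 0.436%, also hold. The exon or untranslated region in which each probe lies was not analysed here.

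Spots well above background made up 82.1% and 81.9% on the sham arrays and 74.9% and 78.1% on the SNL arrays. None was saturated. The share was thus lower on both SNL arrays, and its part in the values of dim probes was not tested. Arrays of the sham pair correlated at r = 0.991 across genes and those of the SNL pair at r = 0.988, against 0.982 to 0.984 between groups. Over all 29304 genes tested, limma called 47 higher and 3 lower after ligation at an adjusted p under 0.05. Markers of spinal neurons, motor neurons, oligodendrocytes, astrocytes and microglia were measured on every array, with at least 9 of 10 neuronal and 6 of 7 motor neuron markers well above background. The linear sum of 8 microglial markers was 20.8 to 21.0 in sham mice and 33.9 to 39.5 in SNL mice. That of 8 skeletal muscle markers was 38.2 in SNL mouse 1 against 3.08 to 5.79 in the other 3 mice, and that of 4 Schwann cell markers was 0.903 in sham mouse 2 against 6.81 to 11.2 in the others. Neuronal markers summed to 61.4 and 73.4 in sham mice and to 74.9 and 81.4 in SNL mice. The 61.4 of sham mouse 1 lacks Syt1, which had no value there and read 2.86 in sham mouse 2 on the log2 scale. That sum therefore does not cover the same markers as the others.

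No channel subunit gene passed an adjusted p of 0.05 with limma, where 0.16% of all genes were called higher, 0.0102% lower and 0.171% either way, and the lowest adjusted p among the 39 was 0.257. At an unadjusted p under 0.05, 3 were higher (6.67% of all genes) and 2 were lower (5.48%). The 3 were the sodium channel gene Scn9a and the calcium channel genes Cacna1s and Cacna2d4, and the 2 were Cacna1d and Cacna1g. The SNL mice lay above both sham mice in 13 genes (24.7% of all genes) and below both in 7 (20.7%), so that the groups were apart in 20 genes (45.4% of all genes), and they overlapped in 19. Only Scn9a and Cacng1 differed by at least 2-fold, a size that 3.85% of all genes reached.

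**Figure D1:**
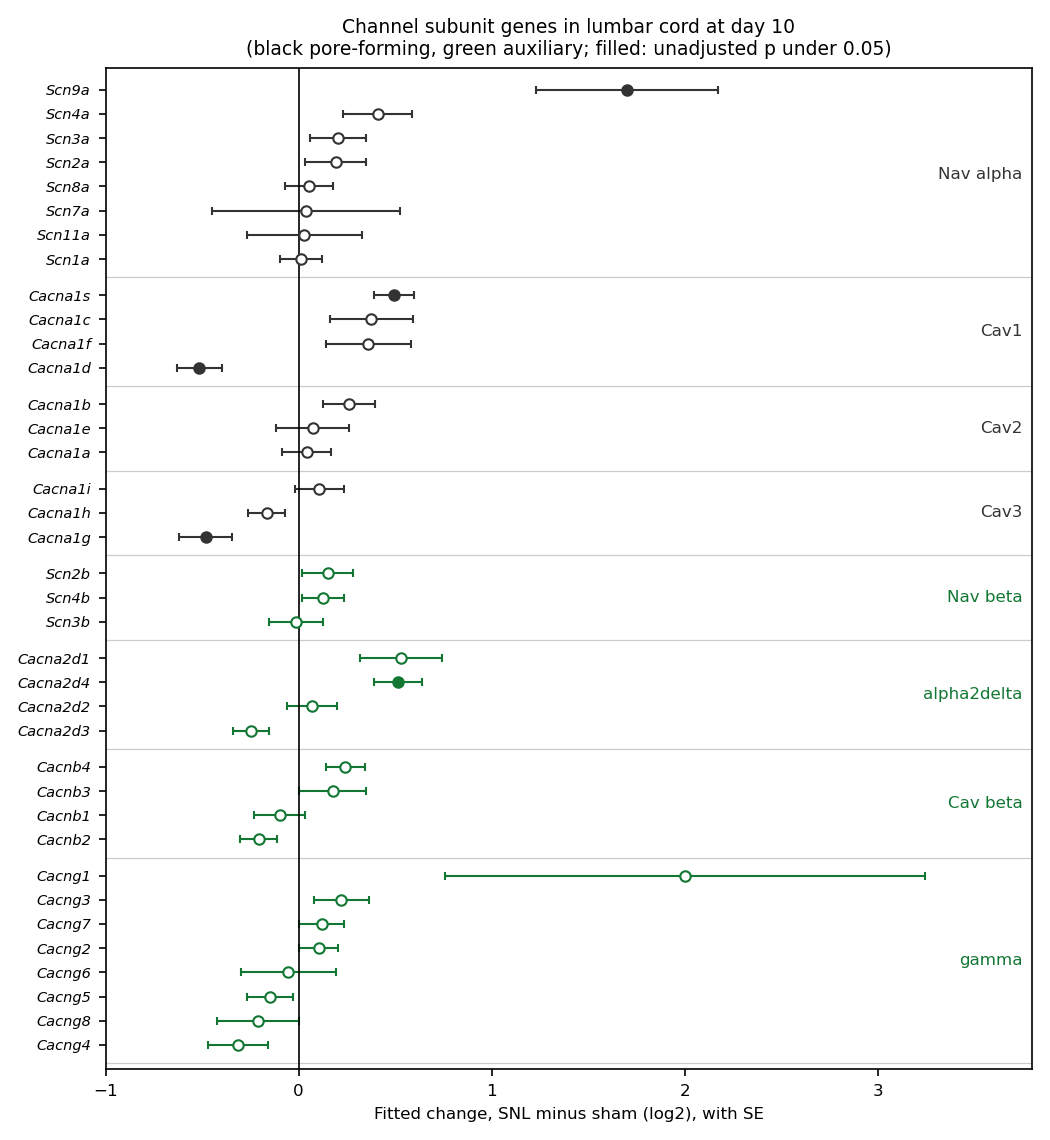
Fitted change (x axis, log2, SNL minus sham, bars are the SE with 2 mice per group) for 37 of the 39 tested channel subunit genes (rows), pore-forming in black and auxiliary in green, grouped by family. Most points lie within 0.5 of 0, Scn9a at 1.70 and Cacng1 at 2.00 stand out, and the filled points are the 5 genes with an unadjusted p under 0.05.

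Among sodium channel alpha subunits, 8 of 9 tested genes had a change above 0, with a median of 0.06, but 7 did with normexp correction and 4 with quantile normalization, and Scn9a was the one at an unadjusted p under 0.05. Scn9a encodes the channel that amplifies small depolarisations in nociceptive sensory neurons and whose loss abolishes pain in people. Its signal was -7.35 and -6.65 in the sham mice and -4.78 and -5.82 in the SNL mice. Both SNL mice were above both sham mice, and the probe was well above background in all 4. The sham signals were nonetheless dim, so signal over background limits how exact the fold is. The change was 1.70 ± 0.47 (SE), a 3.26-fold higher signal, with adjusted p = 0.338 in limma. Leaving out 1 mouse at a time gave 1.18 to 2.22, and normexp background correction 1.14. The unadjusted p was above 0.05 in limma under quantile normalization (1.6). The 5 measured markers of primary sensory neurons, the cells in which Scn9a is best known, summed to 2.67 and 3.02 in sham mice and to 2.74 and 3.23 in SNL mice, which overlap. Mrgprd, also on the list, was too dim to test. In whole cord RNA, more cells of a type and more RNA per cell cannot be told apart.

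The other sodium channels of nociceptive sensory neurons did not separate the groups. Scn10a, a tetrodotoxin-resistant channel, was not well above background on any array, with signals of -9.98 and -8.12 in sham and -8.87 and -8.41 in SNL mice, and was not tested. Scn11a, its relative that sets the resting potential of the same neurons, read -5.82 and -5.08 in sham mice and -5.53 and -5.32 in SNL mice. Here the SNL mice lay between the sham mice. The change was 0.03 ± 0.30 and was -0.08 under quantile normalization, so it has no settled direction.

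Scn3a, an embryonic sodium channel that sensory neurons re-express after axotomy, has 5 tested probes. Its brightest read 0.02 and 0.32 in the sham mice and 0.32 and 0.42 in the SNL mice. Sham mouse 1 was the low one and the remaining 3 lay close together. The change was 0.20 ± 0.15 (adjusted p = 0.648 in limma), and the 5 probes ranged from -0.38 to 0.34. The major alpha subunits of central axons and interneurons were as close at their brightest probes. Scn1a changed by 0.01 ± 0.11 and Scn2a by 0.19 ± 0.16, both chosen for mention after their values were seen. The sign of Scn1a turned under quantile normalization. Another Scn1a probe changed by -0.21 ± 0.15, lower in both SNL mice, and the dimmest Scn2a probe by -0.09 ± 0.21. Scn2a has a probe printed in 10 spots on each array, which shows the spread of repeated spots. Its mean over the 10 spots was -0.11 and 0.45 in sham and 0.43 and 0.44 in SNL mice, and the SD between spots of a mouse was 0.10 to 0.15. Sham mouse 1 was the low one and the other 3 mice lay close together. The SD between spots covers the error of 1 array and not the spread between mice.

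Scn8a encodes the main sodium channel of nodes of Ranvier and of the axon initial segment, where action potentials start. Its brightest probe, the one with the TG repeat, read 2.73 and 2.97 in sham and 2.91 and 2.90 in SNL mice. The groups overlapped, the change was 0.06 ± 0.12, and its sign turned under normexp correction (-0.17) and quantile normalization (-0.09). The middle probe read -4.35 and -4.37 in sham mice and -5.13 and -5.12 in SNL mice. Signals were lower in both SNL mice, by far more than mice of a group differed. With every probe as its own feature, its change was -0.77 ± 0.09, adjusted p = 0.149 in limma, the lowest p of any of the 61 channel probes. It lay between -0.59 and -0.90 under normexp correction, quantile normalization, the deposited table and with each mouse left out. The first probe, -2.12 and -2.33 in sham and -2.54 and -2.41 in SNL mice, was also lower, by 0.25 ± 0.13 (adjusted p = 0.540). The middle probe minus the brightest was -7.07 and -7.33 in sham mice and -8.04 and -8.01 in SNL mice, so the 2 probes moved apart in both SNL mice. An exact permutation test of that gap cannot go below 0.333 with 2 mice against 2. Gaps between probes of other channel genes are described below.

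Among L-type alpha1 genes, Cacna1d was lower and Cacna1s higher. Cacna1d encodes an L-type channel that opens at low voltages and supports persistent inward currents in motor neurons and dorsal horn neurons. It read 0.06 and 0.07 in sham mice and -0.56 and -0.34 in SNL mice. The sham mice were nearly equal and both SNL mice lay below them. The change was -0.51 ± 0.12, with adjusted p = 0.277 in limma. A second, dimmer probe of Cacna1d read -2.37 and -2.44 in sham and -2.84 and -2.09 in SNL mice, which overlap, for a change of -0.06 ± 0.29. The mean of both probes gave -0.29 with an adjusted p of 0.631 in limma. Leaving out 1 mouse at a time gave -0.62 to -0.41 at the brightest probe.

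T-type Cacna1g was lower at both of its probes. It encodes a T-type channel that gives rebound bursts in central neurons. Its brightest probe read 0.43 and 0.61 in sham mice and -0.08 and 0.15 in SNL mice. The second probe read -0.42 and -0.20 in sham mice and -0.74 and -0.86 in SNL mice. Both probes put both SNL mice below both sham mice, with changes of -0.48 ± 0.14 (adjusted p = 0.350) and -0.49 ± 0.13 (adjusted p = 0.329 with every probe as its own feature). Leaving out 1 mouse at a time gave -0.60 to -0.37 at the first probe. Its unadjusted p was above 0.05 in limma with normexp correction (-0.35). Cacna1h, the T-type channel of nociceptors, read 1.41 and 1.30 in sham and 1.17 and 1.20 in SNL mice. That is lower in both SNL mice, by 0.16 ± 0.10 (adjusted p = 0.587), but normexp correction gave 0.03. Those values are from its brightest probe, and its dimmer probes changed by -0.17 ± 0.15 and 0.10 ± 0.24. Cacna1i, the third T-type gene, was chosen after its values were seen. It changed by 0.11 ± 0.13 at its brightest probe, a sign that normexp correction turned. The second Cacna1i probe changed by 0.24 ± 0.15, a sign that normexp correction kept.

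Most markers of motor neurons were also lower. Of 7 such markers, 5 were lower after ligation at an unadjusted p under 0.05 (5.48% of all genes). Chodl and Mnx1 passed an adjusted p of 0.05, where 0.0102% of all genes were lower. Prph (0.08 ± 0.14) and Isl1 (-0.02 ± 0.24) had overlapping groups. The linear sum of the 7 markers was 20.5 and 22.9 in sham mice and 13.7 and 16.2 in SNL mice. The Mnx1 probe did not clear background in the SNL mice. The part of motor neurons in the lower signals of Cacna1d, Cacna1g and the middle Scn8a probe was not tested.

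Cacna1s encodes the L-type channel and voltage sensor of skeletal muscle. It read -2.24 and -2.31 in sham mice and -1.71 and -1.85 in SNL mice. Signals of both SNL mice were higher, and the change was 0.50 ± 0.10, with adjusted p = 0.257 in limma. Leaving out a mouse gave Cacna1s a change of 0.43 to 0.56. Its second probe read -3.20 and -3.02 in sham and -1.08 and -2.49 in SNL mice, a change of 1.33 ± 0.53 that was 0.62 without SNL mouse 1. Cacng1, the gamma subunit of that same muscle channel complex, read -5.80 and -5.96 in sham mice and -2.20 and -5.55 in SNL mice. Its change of 2.00 ± 1.24 (adjusted p = 0.601) came from SNL mouse 1 and was 0.33 without it. Scn4a, the sodium channel of skeletal muscle, read -6.40 and -6.80 in sham mice and -6.26 and -6.12 in SNL mice, a change of 0.41 ± 0.18 (adjusted p = 0.489). Cacng1 and Scn4a were chosen for mention after their values were seen. None of the 8 skeletal muscle markers differed at an unadjusted p under 0.05, and all 8 were highest in SNL mouse 1. One of them, Mylpf, was well above background in only 1 sham and 1 SNL mouse. In SNL mouse 2 their sum, 3.08, was the lowest of the 4 mice, and Cacna1s was above both sham mice there at both probes. The part of muscle RNA in the channel signals of the SNL mice was not tested.

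**Figure D2:**
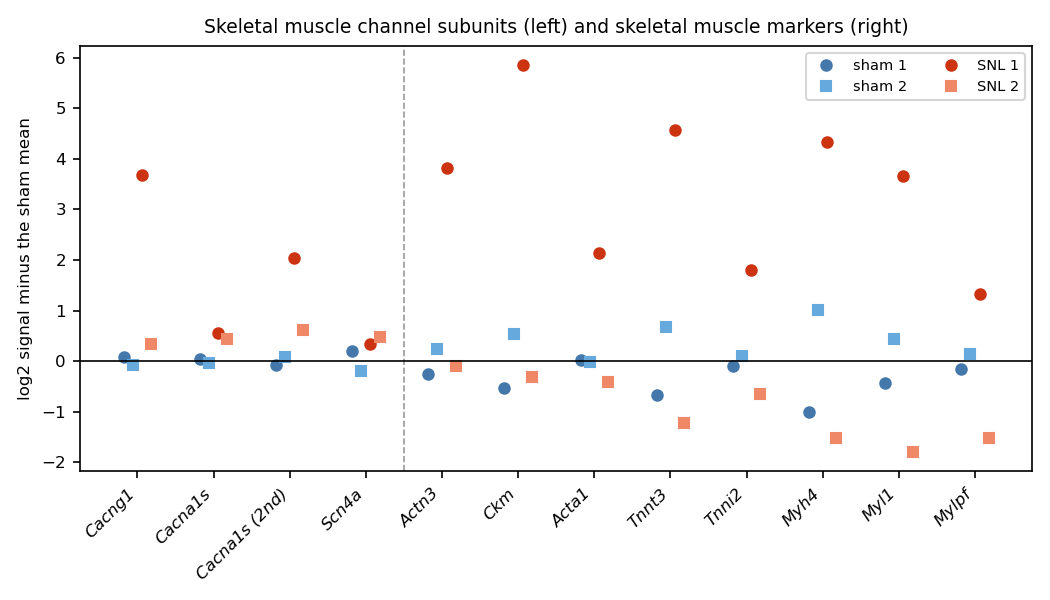
Log2 signal minus the sham mean (y axis) for each of the 4 mice at the probes of the skeletal muscle channel genes Cacng1, Cacna1s (both probes) and Scn4a, left of the dashed line, and at 8 skeletal muscle markers, right of it. SNL mouse 1 is the highest point for Cacng1, for both Cacna1s probes and for all 8 markers, whereas SNL mouse 2 is above both sham mice at the channel genes and below the sham mean at the markers.

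The remaining L-type genes had changes above 0 at the probes used for them, without passing the test. Cacna1c, the L-type channel of heart, vessels and most central neurons, read -3.31 and -2.91 in sham mice and -2.91 and -2.55 in SNL mice. The groups met at -2.91, and the change was 0.38 ± 0.22 (adjusted p = 0.581 in limma), or 0.18 to 0.58 with a mouse left out. Another probe that a current RefSeq gene table assigns to Cacna1c is named D930026N18Rik in the files and falls outside the rule. It read 0.89 and 1.01 in sham mice and 0.98 and 0.93 in SNL mice, a change of 0.0021. That probe was brighter than the one used here, so without the naming rule it would have represented Cacna1c. Cacna1f, the L-type channel of photoreceptors, was chosen after its values were seen and changed by 0.36 ± 0.22, or by 0.12 to 0.61 with a mouse left out.

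None of the presynaptic calcium channel genes passed the test. Cacna1b encodes the N-type channel of primary afferent terminals, the target of the analgesic ziconotide. It read -4.65 and -4.40 in sham and -4.33 and -4.20 in SNL mice. Both SNL mice were slightly above both sham mice, and the change was 0.26 ± 0.13 (adjusted p = 0.543). It was 0.43 with normexp correction, at an unadjusted p under 0.05, and 0.14 to 0.38 with a mouse left out. Cacna1a, the P/Q-type channel of most fast central synapses, read 1.73 and 1.97 in sham mice and 1.86 and 1.92 in SNL mice. The SNL mice lay between the sham mice, and the change of 0.04 ± 0.13 turned to -0.01 under quantile normalization. The R-type gene Cacna1e, chosen after its values were seen, changed by 0.07 ± 0.19, with a sign that also turned under quantile normalization.

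Scn7a, chosen after its values were seen, is a sodium-sensing relative that opens with sodium level and is made by glia and Schwann cells. It read -6.36 and -7.59 in sham and -6.74 and -7.14 in SNL mice. It was well above background in both sham mice and in neither SNL mouse, so no fold is given. Its lowest signal was in sham mouse 2, where the Schwann cell marker sum of 0.903 was also the lowest. These 4 markers were well above background on every array, and their part in this signal was not tested.

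**Figure D3:**
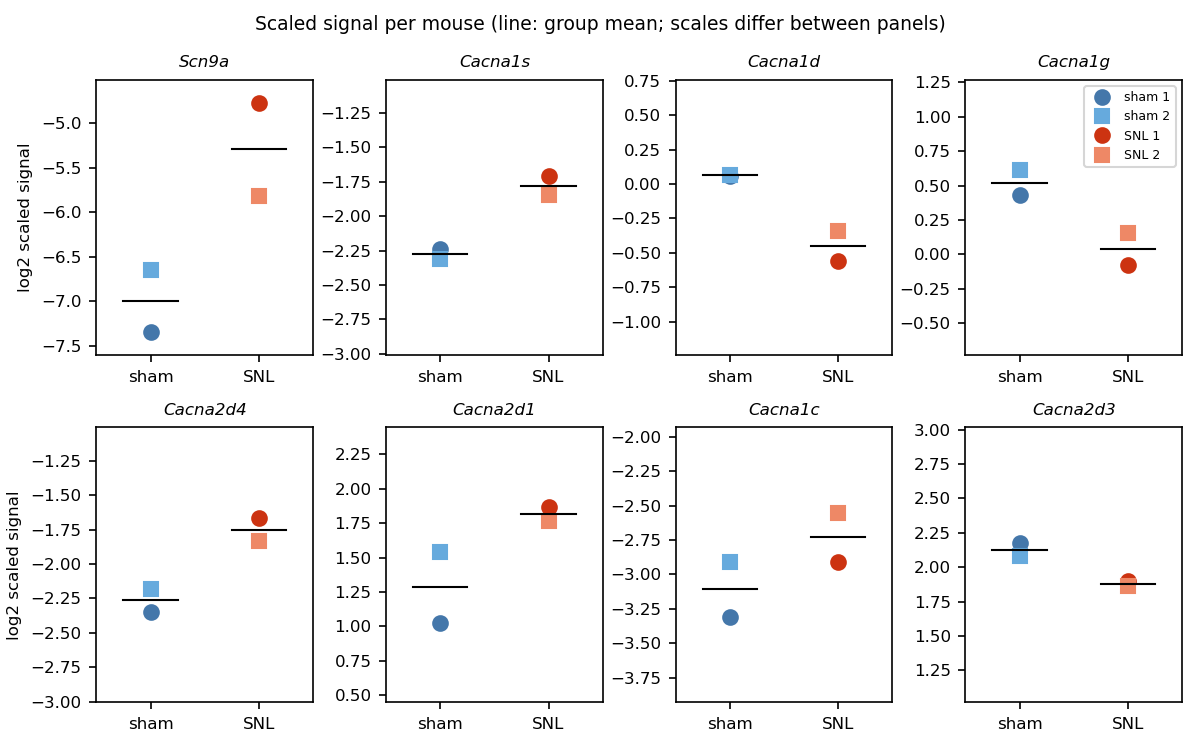
Scaled log2 signal (y axis, its span differs between panels) of each sham mouse (blue) and SNL mouse (red) for 8 channel genes, with black lines for the group means. The groups are apart in Scn9a, Cacna1s, Cacna1d, Cacna1g, Cacna2d4, Cacna2d1 and Cacna2d3, meet in Cacna1c, and sham mouse 1 is the low point of Cacna2d1.

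Of the alpha2delta genes, Cacna2d1 and Cacna2d4 had signals above sham and Cacna2d3 below it at every scaling tried, and none passed the adjusted test. Cacna2d1, the gabapentin-binding subunit whose protein is known to build up in dorsal horn after nerve injury, read 1.03 and 1.54 in sham mice and 1.87 and 1.76 in SNL mice. Both SNL mice were higher, but the sham mice differed from each other by about as much as the groups did. The change was 0.53 ± 0.21, a 1.45-fold higher signal, with adjusted p = 0.461 in limma, and it was 0.28 without sham mouse 1 and 0.79 without sham mouse 2. The second Cacna2d1 probe read 0.65 and 0.95 in sham mice and 1.6 in SNL mouse 1. Its spot on the array of SNL mouse 2 was marked as an outlier by the scanner software and left out, so its change of 0.80 ± 0.21 (adjusted p = 0.375) rests on 1 SNL mouse. Cacna2d4, an alpha2delta gene best known from photoreceptors, read -2.35 and -2.18 in sham and -1.67 and -1.84 in SNL mice. All of its SNL signals were above all sham signals, with a change of 0.51 ± 0.12, adjusted p = 0.295. Leaving out 1 mouse at a time gave 0.43 to 0.60. The microglial marker sums given above were also higher in both SNL mice. Of the 8 markers, 7 were higher at an unadjusted p under 0.05 (6.67% of all genes), and all 8 were well above background on every array. The part of these markers in the higher channel signals was not tested.

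Cacna2d2 and Cacna2d3 did not follow Cacna2d1. Cacna2d2, the second gabapentin-binding subunit, read 2.44 and 2.70 in sham mice and 2.67 and 2.61 in SNL mice. The SNL mice lay between the sham mice, and the change of 0.07 ± 0.13 became -0.15 with normexp correction and -0.05 with quantile normalization. Cacna2d3, whose loss impairs pain sensing in flies and mice, was chosen after its values were seen and read 2.17 and 2.08 in sham and 1.90 and 1.86 in SNL mice. It was lower in both SNL mice, by 0.25 ± 0.09 (adjusted p = 0.447), or by 0.04 after normexp correction. Whether these 4 genes differ from each other in their change was not tested.

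The sodium channel beta subunit genes Scn2b, Scn3b and Scn4b differed by little more than their SE or less. Scn2b, which sets how many channels reach the membrane, read 1.99 and 2.24 in sham and 2.21 and 2.32 in SNL mice. It was lowest in sham mouse 1, and the groups overlapped. Scn3b read 1.78 and 2.02 in sham mice and 1.97 and 1.80 in SNL mice. Scn4b, the source of the resurgent current that supports fast firing, read 2.71 and 2.87 in sham mice and 2.94 and 2.89 in SNL mice, with the SNL mice just above the sham mice. The 3 changes ran from -0.01 to 0.15 with SEs of 0.11 to 0.14 and adjusted p of 0.702 to 0.978 in limma. Normexp correction turned the sign of all 3, and quantile normalization that of Scn4b.

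Calcium channel beta subunits, which bind the alpha1 subunit inside the cell and carry it to the membrane, gave 2 changes above 0 and 2 below, from -0.21 for Cacnb2 to 0.24 for Cacnb4. Cacnb3, the partner of N-type channels in sensory and dorsal horn neurons, read 0.60 and 1.00 in sham mice and 1.00 and 0.96 in SNL mice. Sham mouse 1 was the low one, and the change of 0.18 ± 0.17 (adjusted p = 0.734) became -0.03 without it. Cacnb4, chosen after its values were seen, read 2.51 and 2.64 in sham and 2.80 and 2.82 in SNL mice, higher in both SNL mice by 0.24 ± 0.10 (adjusted p = 0.469), by 0.09 with normexp correction and by 0.11 with quantile normalization.

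Gamma subunits other than the muscle gene Cacng1 had changes between -0.31 and 0.22. Cacng2 encodes stargazin, which carries AMPA receptors to synapses and has been linked to pain after nerve injury. It read 2.67 and 2.80 in sham and 2.86 and 2.82 in SNL mice. The SNL mice were above the sham mice by 0.10 ± 0.10 (adjusted p = 0.731), a sign that normexp correction and quantile normalization turned. Cacng7, another AMPA receptor auxiliary subunit, read 2.35 and 2.16 in sham mice and 2.42 and 2.34 in SNL mice at its brightest probe. The groups overlapped there, with a change of 0.12 ± 0.12 that normexp correction turned to -0.14. Its other probe, upstream of it in mm9, read -2.87 and -2.90 in sham mice and -3.40 and -3.54 in SNL mice. Both SNL mice were lower, with a change of -0.58 ± 0.11, adjusted p = 0.223 with every probe as its own feature. It stayed between -0.52 and -0.75 under normexp correction, quantile normalization, the deposited table and with each mouse left out. The gap between the 2 probes was -5.22 and -5.06 in sham mice and -5.82 and -5.87 in SNL mice, wider in both SNL mice.

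Of 16 channel genes with several tested probes, 7, with Scn8a and Cacng7 among them, had probes with changes of opposite sign. That is 43.8%, near the 43.9% of all 9191 genes with several tested probes. The range between the probes of a channel gene had a median of 0.24. Scn8a and Cacng7 were shown for probes that differed, so a gap that differs between groups follows from that choice. In Cacna1d, Cacna1f, Cacna1s, Scn1a, Scn2a and Scn3a, the gap between the brightest and another probe was also apart between groups. It overlapped in Cacnb2, Cacna1a, Cacna1g, Cacna1h, Cacna1i, Cacna2d2 and Cacng2. At the level of single probes, 4 of the 61 were higher and 5 lower at an unadjusted p under 0.05, where 6.22% and 5.98% of all 44718 tested probes were. Wherever both probes of a pair are placed on the same transcript, the offset listed in the files and the mm9 order agreed, in 18 of 18 pairs.

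**Figure D4:**
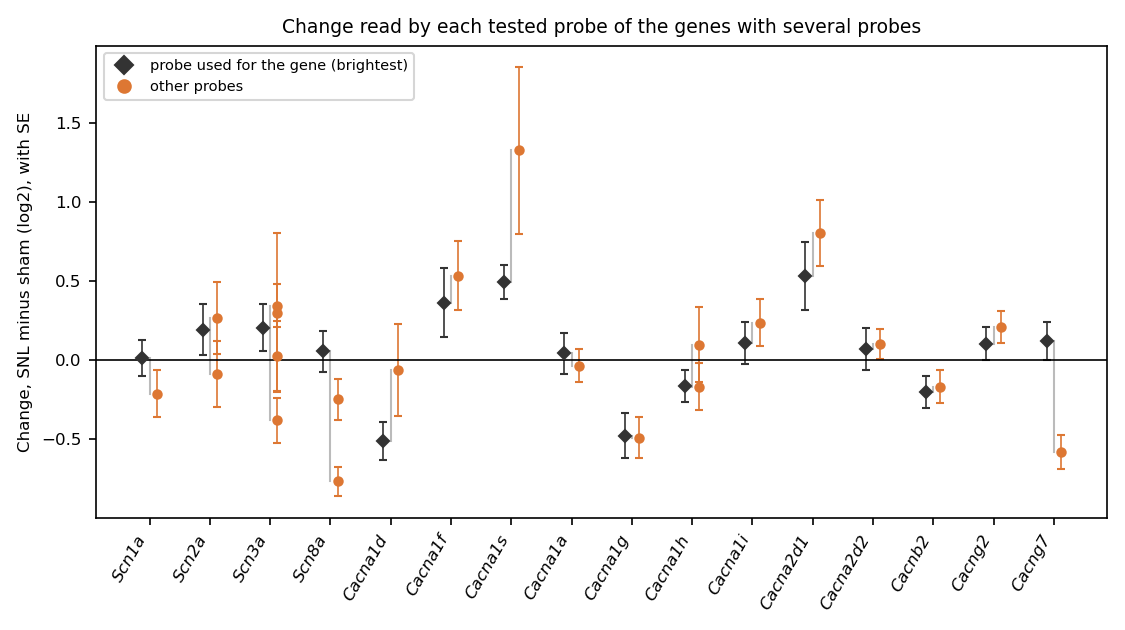
Change (y axis, log2, SNL minus sham, bars are the SE with 2 mice per group) read by every tested probe of the 16 channel genes with several probes (x axis), with black diamonds for the brightest probe and orange circles for the others. The orange circles of Scn8a at -0.77 and Cacng7 at -0.58 lie far below their diamonds, whereas both Cacna1g probes lie at about -0.5 and both Cacna2d1 probes above 0.5.

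Pore-forming and auxiliary genes were also counted apart, and the difference between these classes was not tested. Of 19 pore-forming genes, 15 had a change above 0 and 4 below, with a median of 0.07 that was -0.01 under quantile normalization. Of 20 auxiliary genes, 12 were above 0 and 8 below, with a median of 0.10 that was -0.07 under normexp correction and -0.02 under quantile normalization. Over all genes, 55.0% of changes were above 0 and the median was 0.03. The split of all 39 channel genes was 27 above 0 and 12 below in the values used here, but 21 were above 0 with normexp correction and 18 with quantile normalization. The size of change was also near that of all genes, with a median without sign of 0.18 against 0.16. Sham mouse 1 was the lowest of the 4 mice in 21 of 39 channel genes, or 53.8%, and in 27.8% of all genes. It was the highest in 3. The neuronal marker sum of 61.4 in that mouse lacks Syt1, so it does not cover the same markers as the sums of the other mice. Of the markers with a value in every mouse, Snap25, Gad1, Slc17a6, Rbfox3, Gad2 and Nefm were lowest in that mouse. Tubb3, Nefl and Slc6a5 were not. The part of neuronal RNA in these counts was not tested. Without sham mouse 1 the median of the auxiliary genes was 0.0034 and that of the pore-forming genes -0.0077. The direction of 19 genes, 13 above 0 and 6 below, was the same in all 8 of the settings made of the main values, normexp correction, quantile normalization, the deposited table and each mouse left out.

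Genes whose products bind or regulate these channels were read from 2 lists. Of 26 sodium channel partners, none passed an adjusted p of 0.05 in limma, where 0.171% of all genes did. At an unadjusted p under 0.05, 1 was higher (6.67% of all genes) and 1 lower (5.48%). S100a10, which carries Scn10a channels to the membrane, read 2.46 and 2.42 in sham mice and 3.19 and 3.0 in SNL mice, a change of 0.65 ± 0.11 (adjusted p = 0.203). Tnr, a matrix protein of nodes that binds sodium channel beta subunits, was lower by 0.47 ± 0.13 (adjusted p = 0.348). The node scaffolds Ank3, Sptbn4 and Nfasc, chosen after their values were seen, changed by 0.07, -0.07 and -0.03, and the list median was 0.06.

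Of 35 calcium channel partners, none passed an adjusted p of 0.05 in limma, where 0.171% of all genes did. At an unadjusted p under 0.05, 3 were higher (6.67% of all genes) and 4 lower (5.48%). The list median was 0.05. The lowest p belonged to 2 of the 4 small GTPases that suppress calcium channels by binding their beta subunits. Gem read -0.86 and -0.85 in sham mice and -1.92 and -1.95 in SNL mice, and mice of a group were nearly equal. Its change was -1.08 ± 0.09, with an adjusted p of 0.088. Rem2 read -1.66 and -1.44 in sham and -2.64 and -2.48 in SNL mice, a change of -1.0 ± 0.13 (adjusted p = 0.159). The other members of that family, Rem1 at -0.17 ± 0.17 and Rrad at -0.12 ± 0.14, were named after their values were seen and had overlapping groups. Thbs1, a thrombospondin that binds Cacna2d1 protein, was higher by 0.44 ± 0.10 (adjusted p = 0.282), and Stac3, an adaptor of the muscle channel Cacna1s, by 0.38 ± 0.11 (adjusted p = 0.345). Lower Gem and Rem2 moved with the lower motor neuron markers given above, whose part in these values was not tested.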

How the data were processed

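Total RNA was labelled with Cy3 and hybridised to 1-colour Agilent arrays of design 028005, per the labels and the file headers. The deposited intensity values are processed signals from Agilent Feature Extraction, with version 10.7.3.1 in the file headers, while the submitters' processing notes name 10.7.1.1. The authors also deposited a table of log2 values, used as an alternative. Its columns match the arrays (r = 1) with medians from -3.52 to -3.33, each shifted by 0.122 to 0.132 from the values used here. The scale is log2, the values are not centred per gene, and the spots behind the shift stay unknown.

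Signals were put on the log2 scale and the 75th percentile over the 59305 non-control spots of an array was subtracted. Outlier-flagged spots were left out, and spots of a probe were averaged. A gene was represented by its brightest tested probe. Genes took current symbols from a RefSeq table by accession (26762 probes), symbol (3819) or synonym (638), and 24461 kept the file's name. Both groups were fitted in limma 3.58.1 (R 4.3.3; lmFit, eBayes, no covariate) with Benjamini-Hochberg adjustment over all genes. The script was tested on simulated data. The fit had 2 residual and 1.65 prior degrees of freedom. Precision is limited by the number of arrays, with a median SE of 0.13. An exact two-sided permutation test of 2 mice against 2 cannot go below p = 0.333. All arrays share 1 slide and 1 scan.

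The channel genes, marker lists and partner lists were chosen with earlier results of these data known. Values for every mouse are given for genes at an unadjusted p under 0.05, for a list of subunits long studied in pain, and for genes with probes of opposite sign of which 1 had p under 0.05. Of each partner list, up to 4 genes with the smallest p are named. Values of 2 tested channel genes are not reported here, though counts and medians include them. Genes outside these rules are marked as chosen later. Alternatives were normexp correction with an offset of 50, quantile normalization, other percentiles, filters and probe rules, a trended robust fit, the deposited table, a replicate block and each mouse left out.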

Additional observations from a re-analysis of the deposited data

How the results depend on the processing

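No channel subunit gene passed an adjusted p of 0.05 in limma under any alternative run, and the lowest adjusted p of a member ranged from 0.0895 (trended robust fit) to 0.62 (without sham mouse 1). At an unadjusted p under 0.05, normexp correction gave 6 higher (9.92% of all genes) and the trended robust fit 5 (9.03%), against 3 (6.67%). Quantile normalization gave 4 lower (9.71%) and single probes 5 (5.98%), against 2 (5.48%). Fits with a mouse left out have 1 mouse in a group, so their counts at this p are not given. With a mouse left out, the median ran from 0.0034 (without sham mouse 1) to 0.18 for auxiliary genes and from -0.0077 (without sham mouse 1) to 0.22 (without sham mouse 2) for pore-forming genes. Auxiliary genes had a median of -0.068 with normexp and -0.023 with quantile normalization.

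Over all genes, calls higher and lower were 119 and 14 with normexp, 11 and 0 with quantile normalization, 1132 and 87 without the filter and 422 and 117 in the trended robust fit, against 47 and 3. Higher calls were 27 with the percentile over detected probes, and lower calls 5 with probes detected on all 4 arrays and 5 with single probes. Each left-out mouse gave 0 and 0. The replicate block gave 0 and 0 calls over all genes, no member call, and a lowest member adjusted p of 0.462. Deviations of same-numbered mice correlated at r = -0.027, so the numbers are not known to pair mice.

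Signs turned as follows. Normexp gave Cacna1h 0.032, Cacna2d2 -0.15, Cacng2 -0.056, Cacng7 -0.14, Scn2b -0.16, Scn3b 0.17, Scn4b -0.022 and Scn8a -0.17. Quantile normalization gave Cacna1a -0.015, Cacna2d2 -0.055, Cacng2 -0.031, Scn11a -0.080, Scn4b -0.014 and Scn8a -0.086. The mean of a gene's probes gave Cacng7 -0.23 and Scn8a -0.32. With a mouse left out, Cacna1a ran from -0.078 to 0.16, Cacna2d2 from -0.057 to 0.20, Cacnb3 from -0.026 to 0.38, Scn11a from -0.34 to 0.40, Scn3b from -0.13 to 0.10 and Scn8a from -0.066 to 0.18. The cause of these moves was not tested. A block for slide or scan was not run, since all arrays share them. Signal over background limits Scn10a, Scn7a and Scn9a.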

Other observations

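Sodium channel genes Scn1a, Scn2a, Scn3a, Scn7a and Scn9a, all on mouse chromosome 2 by the files' mm9 positions, lie in the same family cluster and were set side by side after their values were seen. Scn9a stood at 1.70 ± 0.47 (SE, log2, SNL minus sham). At their brightest probes, Scn1a was at 0.01 ± 0.11, Scn2a at 0.19 ± 0.16 and Scn3a at 0.20 ± 0.15. Scn7a was well above background in neither SNL mouse, so no fold is given for it. None of these genes had an adjusted p under 0.338 in limma, and Scn9a was the only 1 at an unadjusted p under 0.05. Whether Scn9a differs in its change from its neighbours was not tested.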
